A study of Homo sapiens with 15 samples.

Results

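The non-targeting control libraries of 2 senescent human cell lines were set against each other, 3 of IMR90 and 3 of Huh7, chosen by their labels from the 15 libraries of a study of THBD, the gene of thrombomodulin. IMR90 is a normal human lung fibroblast line, and its cells were labelled as senescent through HRAS G12V, an oncogenic form of the small GTPase HRAS. Huh7 is a human hepatocyte-derived carcinoma line, and its cells were labelled as senescent through palbociclib, an inhibitor of the kinases CDK4 and CDK6. A non-targeting short hairpin RNA was carried by the cells of all 6, and no other manipulation is said to be common to both lines. The growth protocol also speaks of replicative senescence of IMR90 after long passage, without saying whether these libraries come from it, and the labels give neither the dose nor the duration of palbociclib. The 9 libraries labelled shTHBD entered a single comparison, near the end. Line, tissue of origin, senescence inducer and count table changed together, so their parts in any difference cannot be told apart, and no proliferating cells of either line were among the libraries.

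Senescence is a lasting stop of the cell cycle. It is held by inhibitors of cyclin-dependent kinases such as p16 (CDKN2A) and p21 (CDKN1A), which keep the retinoblastoma protein bound to E2F factors and so keep genes of DNA replication and mitosis silent. Oncogenic RAS drives this state through strong signalling to ERK, and RAS-senescent fibroblasts are known for secreting inflammatory cytokines, proteases and growth factors, the senescence-associated secretory phenotype (SASP), much of it under the factors NF-kB and C/EBP beta. Palbociclib blocks the kinases that phosphorylate the retinoblastoma protein, which is the step where p16 acts.

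Libraries held 18682662 to 21509229 counts in IMR90 and 19328182 to 20020683 in Huh7, and genes shared by symbol between the tables (38415 of 59428 and 59412) held all but 1.02 to 1.33% of them. Levels below are in CPM, counts relative to library sizes that were scaled by TMM, an edgeR method that assumes most genes do not differ. Values over 3 libraries are mean ± SD, and log2 fold changes (IMR90 over Huh7) are given ± an approximate SE. Whether replicates came from separate cultures is not stated in the labels. The p-values therefore reflect the spread among the libraries alone, which may be technical and was smaller in IMR90 (coefficient of variation beyond counting error 2.50%) than in Huh7 (6.30%). In bulk RNA, fewer cells with a transcript and less of it per cell cannot be told apart. In the IMR90 table, fragments that fall on 2 overlapping genes appear to be left out of both counts, and strand was not used. These settings are not known for the Huh7 table. Genes with much shared exon sequence are therefore marked as uncertain where they are named, as are near-identical family members.

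The lines differed at most genes. By edgeR's quasi-likelihood test with Benjamini-Hochberg adjustment, 13592 of 15547 genes tested (87.4%) passed an adjusted p of 0.05, with 6399 (41.2%) higher in IMR90 and 7193 (46.3%) higher in Huh7. A change of at least 2-fold was called for 3392 genes (21.8%) higher in IMR90 and 4836 (31.1%) higher in Huh7, against a median log2 fold change of −0.088 over all genes tested. With so many calls, being called says little about a gene, and sizes and counts by direction are given instead. On the side of likeness, 7701 genes reached 10 CPM in both lines, and 4870 of them (63.2%) had a 95% interval of the log2 fold change within −1 and 1, the range named alike below. At least 10 CPM in IMR90 and under 1 CPM in Huh7 was found for 417 genes, and the reverse for 692 genes.

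**Figure D1:**
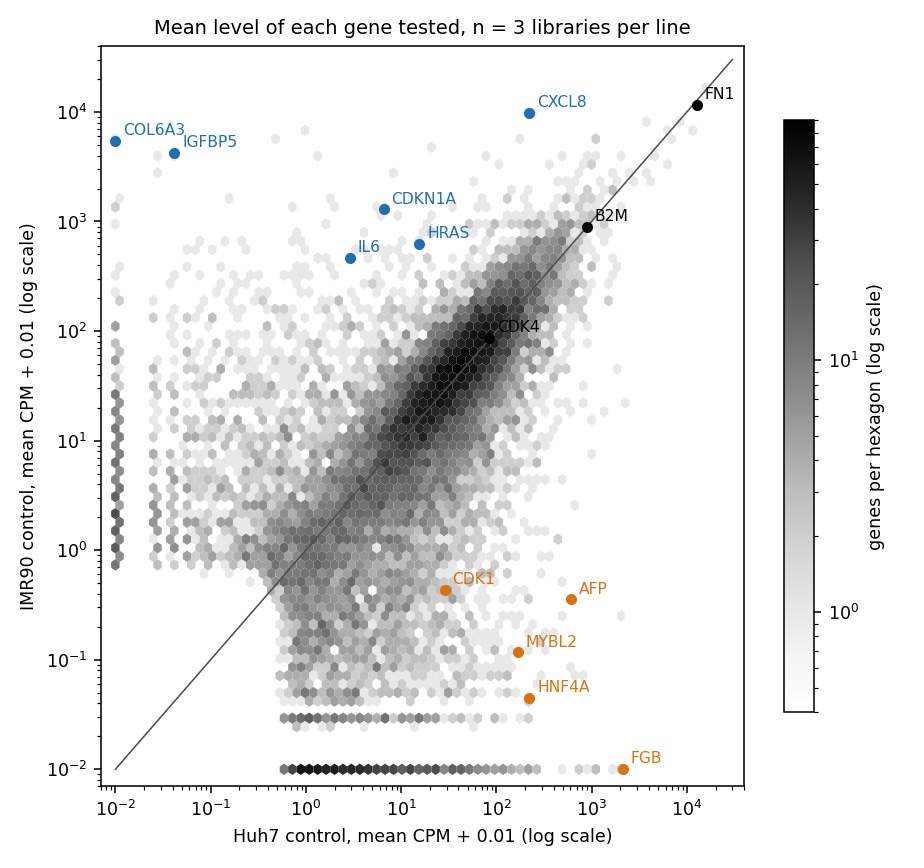
Mean CPM (plus 0.01, log scale) of each gene tested in the Huh7 control libraries (x axis) and the IMR90 control libraries (y axis), n = 3 each; shading gives the number of genes per hexagon, the line marks equal levels, and 14 genes of the text are named. The cloud is densest near the line and spreads to both sides of it, and COL6A3 and FGB stand on opposite axes, with 0 counts in every library of the other line.

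The widest gaps were in genes with no count, or very few counts, in one line. COL6A3, a chain of type VI collagen, stood at 5440 CPM in IMR90 and had no count in Huh7, so it was at least 116630-fold higher against a floor of 3 counts over the 3 libraries. Among genes of at least 100 CPM it was joined on the IMR90 side by GREM1, a secreted antagonist of bone morphogenetic proteins (1580.3 CPM), PXDN, a matrix peroxidase (1362 CPM), SERPINB2, an inhibitor of urokinase (1425 CPM), and the long noncoding RNA MEG3 (952 CPM), each with no count in Huh7. The collagenase gene MMP1 (3855 CPM), tenascin TNC (2729 CPM) and IGFBP5 (4251 CPM), which binds insulin-like growth factors, had 1, 1 and 2 counts in all of Huh7. On the Huh7 side stood the fibrinogen chains FGA (2231 CPM), FGB (2119 CPM) and FGG (742 CPM), the retinal dehydrogenase ALDH1A1 (1832 CPM), AMBP (1178 CPM), TTR (1099 CPM), the stem cell surface protein PROM1 (1024 CPM) and APOB (987 CPM), and none of these 8 had a count in IMR90.

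Each line carried the markers of its labelled cell type. Of 19 hepatocyte markers, all were higher in Huh7, and 12 had no count in any IMR90 library. Their summed level was 11190 to 11430 CPM in the Huh7 libraries against 18.2 to 20.2 CPM in IMR90, most of that from SERPINA1. Of 19 fibroblast markers, 17 were higher in IMR90, and their sum was 13860 to 13920 CPM against 1049 to 1104 CPM in Huh7. The exceptions were LUM, which encodes the proteoglycan lumican and measured 27.2, 32.3 and 29.7 CPM in the IMR90 libraries and 263, 253 and 233 CPM in the Huh7 libraries, and S100A4, under 2 CPM in every library. LUM was therefore higher in every Huh7 library than in any IMR90 library, against its use as a fibroblast marker.

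**Figure D2:**
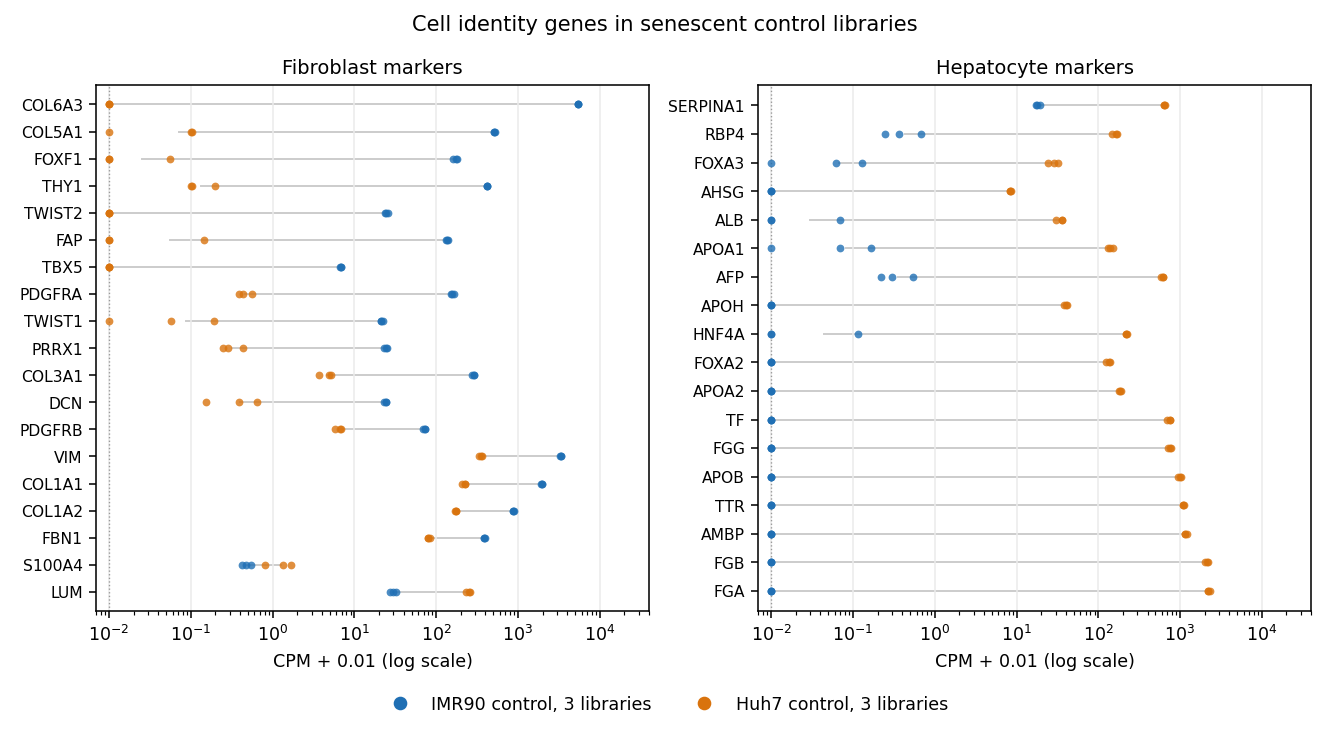
CPM (plus 0.01, log scale; dotted line, 0 counts) of 19 fibroblast markers (left) and 18 hepatocyte markers (right) in each of the 3 IMR90 (blue) and 3 Huh7 (orange) control libraries, grey lines joining the means. All hepatocyte markers shown lie to the right in Huh7, and LUM and S100A4 are the fibroblast markers that do so too.

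Promoter sequences of 2 liver genes are shown because both hold a word of the kind bound by HNF1 factors, regulators of liver genes. They come from RefSeq (GRCh38.p14), run from 250 bases before to 50 after the gene start in the direction of transcription, and have the match to TTAATNATT, on either strand, in capitals. FGA lies on the minus strand (chr4:154590693-154590992) with its match 56 bases before the start, and APOH, which encodes a phospholipid-binding plasma glycoprotein, on the minus strand (chr17:66229366-66229665) with its match 137 bases before it.
FGA: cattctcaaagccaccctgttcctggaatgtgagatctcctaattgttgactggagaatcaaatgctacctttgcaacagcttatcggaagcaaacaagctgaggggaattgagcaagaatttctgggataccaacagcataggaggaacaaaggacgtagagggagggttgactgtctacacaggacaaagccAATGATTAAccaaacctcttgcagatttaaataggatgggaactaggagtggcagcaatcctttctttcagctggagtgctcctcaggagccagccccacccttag
APOH: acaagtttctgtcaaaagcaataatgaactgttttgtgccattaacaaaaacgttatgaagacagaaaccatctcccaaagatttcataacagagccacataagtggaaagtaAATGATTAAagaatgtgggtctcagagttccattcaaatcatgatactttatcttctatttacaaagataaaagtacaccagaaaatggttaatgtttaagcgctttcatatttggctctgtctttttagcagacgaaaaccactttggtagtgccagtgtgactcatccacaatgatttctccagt
The word was in 5 of 30 matched promoters of the 38 plasma protein genes (16.7%), in 359 of all 27305 promoters (1.31%) and in 90 of 11839 matched promoters of genes tested (0.76%). It was in 2 of 22 matched promoters of the SASP cytokine list (9.09%) and in 0 of 12 of the liver transcription factors. A word in a promoter is a description of its letters and does not show that a factor binds there.

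The factors of the hepatocyte network were on in Huh7. Of 20 liver transcription factor genes, 19 were higher in Huh7 (median log2 fold change −9.79, or −9.18 with genes at 0 in one line set to their bound), and 8 of them had no count in IMR90. HNF4A, a nuclear receptor that heads this network, measured 0, 0 and 0.104 CPM in the IMR90 libraries and 219, 219 and 226 CPM in the Huh7 libraries. Its libraries did not overlap between the lines. FOXA2, which opens liver chromatin (133 CPM), NR1H4, the bile acid receptor FXR (55.4 CPM), and CREB3L3, a hepatic membrane-bound factor (46 CPM), had no count in IMR90, and CEBPA, whose exons are shared with another gene over 43.9% of their length, stood at 127 CPM against 0.0965 CPM. The one member higher in IMR90 was TBX3, a T-box repressor of senescence genes, at 280.3 ± 4.52 CPM against 17.9 ± 0.735 CPM (log2 fold change 3.97 ± 0.055).

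Plasma protein genes followed the same direction, but not all of the liver's secretory output was on. Of 38 such genes, 35 passed the filter on low counts and all 35 were higher in Huh7, while F9, PLG and SERPINA3 stayed under it in both lines, F9 with no count at all. ALB, the gene of serum albumin, measured 0.0586, 0 and 0 CPM in the IMR90 libraries and 36.4, 35.7 and 30.6 CPM in the Huh7 libraries. APOA1, the main protein of high-density lipoprotein, measured 0, 0.0596 and 0.156 CPM in the IMR90 libraries and 139, 131 and 150.2 CPM in the Huh7 libraries. Both were near 0 in every IMR90 library. Per length, in TPM (counts over transcript length, scaled to a common sum), ALB stood at 38.6 TPM in Huh7 and TTR, a carrier of thyroid hormone, at 1778 TPM. Complement C3 (186 against 1655 CPM), APOE, a ligand of lipoprotein receptors (19.4 against 1379 CPM), and the protease inhibitor SERPINA1 (18.2 against 639.6 CPM) were the 3 members that reached 10 CPM in IMR90 as well.

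Fetal liver and tumour markers were also high in Huh7. Of 14 oncofetal genes, 13 were tested and 12 were higher in Huh7. AFP, the fetal counterpart of albumin, measured 0.293, 0.536 and 0.208 CPM in the IMR90 libraries and 623, 626 and 592 CPM in the Huh7 libraries. GPC3, a surface proteoglycan (506 CPM), LIN28B, a repressor of let-7 microRNAs (247 CPM), and the imprinted RNA H19 (81.9 CPM) had no count in IMR90. IGF2 was the member higher in IMR90, at a low level (5.63 ± 0.801 against 1.17 ± 0.310 CPM), and the IGF2 mRNA-binding proteins IGF2BP1, IGF2BP2 and IGF2BP3 were alike in both lines, between 72.6 and 118 CPM in IMR90 and 105 and 178 CPM in Huh7.

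The metabolic enzymes of mature liver were on less evenly. Of 31 such genes, 30 were joined and 24 tested, 18 of these higher in Huh7 and 3 higher in IMR90, and 10 of the 30 joined stayed under 1 CPM in Huh7 too. CYP7A1 and PCK1, the enzymes that start bile acid synthesis and gluconeogenesis, had no count in any of the 6 libraries. SULT2A1, a steroid sulfotransferase (31 CPM), and BAAT, which conjugates bile acids (52.1 CPM), were among those on the Huh7 side. FAH, the last enzyme of tyrosine breakdown, was higher in IMR90 (61.4, 64 and 60.2 CPM in the IMR90 libraries and 7.91, 6.33 and 7.33 CPM in the Huh7 libraries), as were the urea cycle genes ASL and ASS1.

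IMR90 carried the matrix of a fibroblast, and Huh7 had a partial one. Of 38 collagen and matrix genes, 30 were higher in IMR90 and 8 in Huh7 (median log2 fold change 2.68), and 20 reached 10 CPM in both lines. COL1A1, a chain of type I collagen, measured 1942, 1936 and 1968 CPM in the IMR90 libraries and 224, 208 and 223 CPM in the Huh7 libraries. COL1A2, its partner chain, stood at 877 ± 9.55 CPM against 174 ± 3.23 CPM. Both were higher in IMR90 without overlap, yet neither was absent from Huh7. COL5A1 (511 CPM) was close to 0 in Huh7 (0.0619 CPM), whereas COL5A2, its partner in type V collagen, was 5.22-fold higher in Huh7 (302 against 1579 CPM). COL18A1, the source of endostatin, was 3.06-fold higher in Huh7 (177 against 541 CPM).

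FN1, the gene of fibronectin, which liver cells release into plasma and fibroblasts lay into matrix, was among the most abundant transcripts of both lines. It measured 11663, 11561 and 11583 CPM in the IMR90 libraries and 13273, 12626 and 12589 CPM in the Huh7 libraries. Its log2 fold change of −0.15 had a 95% interval of −0.21 to −0.081, so it was slightly higher in Huh7 and within the alike range.

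Filament and adhesion genes differed between the lines in both directions. Of 29 tested integrin, filament and contractile genes, 19 were higher in IMR90 (background 41.2%) and 8 in Huh7 (background 46.3%). In this list 2 genes were not called and 5 were alike. VIM, the filament of mesenchymal cells, stood at 3342 ± 47 CPM against 347 ± 14.9 CPM, with 24.3% of its exon length shared with another gene. The keratins KRT8 (21.9 against 2367 CPM) and KRT19 (0.373 against 234 CPM) and the epithelial cadherin CDH1 (0.0586 against 627 CPM) were on the Huh7 side, and CDH11, the mesenchymal cadherin (176 against 0.282 CPM), and the integrin chains ITGA11 (38.1 against 0.0157 CPM) and ITGA4 (15.9 against 0.0466 CPM) on that of IMR90.

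Of the markers of other cell types, endothelial and leukocyte ones were sparse. Several epithelial markers in Huh7, and several smooth muscle or pericyte markers in both lines, were not. Lung epithelial genes SFTPC and NKX2-1 had no count in any library. Of 11 endothelial markers, 9 were under 1 CPM in Huh7 and 6 in IMR90, and their sum was 190.4 to 199.7 CPM in IMR90 against 14.9 to 15.7 CPM in Huh7. Nearly all of the IMR90 sum was TIE1, an endothelial receptor tyrosine kinase, at 179.5, 179 and 185 CPM in the IMR90 libraries and 0.0471, 0.0911 and 0.0946 CPM in the Huh7 libraries, while CDH5, a defining endothelial gene, had no count there. In Huh7 the endothelial sum came mostly from PECAM1 (11.9 CPM), the leukocyte sum of 31.8 to 35.3 CPM from LYZ, the gene of lysozyme (22.5 CPM, exons shared over 34%), and the epithelial sum of 1993 to 2113 CPM from SPP1, CDH1, KRT19 and EPCAM. In IMR90 the epithelial sum was 79.28 to 83.35 CPM, with 1 of 12 markers at 10 CPM or more. PTPRC, the pan-leukocyte gene, had 7, 5 and 4 counts in IMR90 and 30, 55 and 35 in Huh7. Of 8 smooth muscle and pericyte markers, 5 reached 10 CPM in IMR90 and 4 in Huh7. Their sums were 589.2 to 594.6 CPM in IMR90 and 204.8 to 222.9 CPM in Huh7. Of these markers 4 were higher in IMR90 and 1 in Huh7. CSPG4, a pericyte proteoglycan, stood at 297 against 1.96 CPM, and MYH11, a defining smooth muscle gene, was under 1 CPM in both. The part of other cells in these levels was not tested.

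The brakes of the cell cycle differed by line. CDKN1A, the gene of p21, measured 1286, 1283 and 1290.1 CPM in the IMR90 libraries and 7.49, 5.92 and 6.25 CPM in the Huh7 libraries. It was 196-fold higher in IMR90 (log2 fold change 7.62 ± 0.059, adjusted p = 9.2e-45 by edgeR), and its Huh7 level was under 8 CPM in every library. CDKN2A, the gene of p16 and ARF, whose transcripts these counts do not separate, measured 125, 124 and 122 CPM in the IMR90 libraries and 39.8, 34.8 and 43.7 CPM in the Huh7 libraries. It was 3.13-fold higher in IMR90 and present in both lines. CDKN2B, the neighbouring gene of p15, went the other way at 85.9 ± 2.40 against 148 ± 2.13 CPM, with a log2 fold change of −0.78 ± 0.048 that still lay within the alike range. CDKN1B, the gene of p27, was 2.64-fold higher in Huh7 (17.2 against 45.4 CPM). Of the 8 inhibitor genes, 4 were higher in each line.

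The targets of palbociclib, and the retinoblastoma gene, were within the alike range. CDK4 measured 87.9, 82.5 and 88.4 CPM in the IMR90 libraries and 80.9, 80.6 and 90.0 CPM in the Huh7 libraries. CDK6 measured 89.1, 96.6 and 93.5 CPM in the IMR90 libraries and 88.9, 89.3 and 84.4 CPM in the Huh7 libraries. RB1, the retinoblastoma gene, measured 49, 53.5 and 52 CPM in the IMR90 libraries and 48.8, 56.2 and 48.6 CPM in the Huh7 libraries. The libraries of the lines overlapped for all 3 genes, and none was called in the TMM-scaled fit of the 6 control libraries. The 95% intervals of the log2 fold change in that fit were −0.070 to 0.15, −0.017 to 0.19 and −0.13 to 0.14. On library size alone, without TMM, the log2 fold changes of CDK4, CDK6 and RB1 were −0.25, −0.20 and −0.28, with the other sign, and all 3 were called by edgeR (adjusted p = 1.2e-04, 6.6e-04 and 2.9e-04). CDK6 was also called with all 15 libraries in 1 edgeR fit (log2 fold change 0.13, adjusted p = 0.0206). CDK4 shares 44.2% of its exon length with another gene. Part of its fragments may be uncounted in IMR90, and in Huh7 too if its table was counted the same way.

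Of the other members of this list, the D cyclins and some E2F genes differed most. CCND1, the cyclin D that activates CDK4 and CDK6, was 4.31-fold higher in IMR90 (2229.6 against 517 CPM), CCND3 7.91-fold higher (113 against 14.3 CPM), and CCND2 was at 14.6 CPM in IMR90 and had 2 counts in all of Huh7. E2F7, a repressive E2F, measured 213, 209 and 201 CPM in the IMR90 libraries and 1.08, 1.41 and 0.710 CPM in the Huh7 libraries. E2F1, an activating E2F, was 4.10-fold higher in Huh7 (8.68 against 35.6 CPM), and E2F2 (3.25 CPM in Huh7) had no count in IMR90. CDK2 (21.8 against 37.1 CPM), CCNE1, the gene of cyclin E1 (13.3 against 13.2 CPM), RBL2 (38.2 against 52.9 CPM) and E2F3 (35.1 against 32.6 CPM) were alike. Over the 17 genes of this list, 5 were higher in IMR90, 6 in Huh7 and 6 not called, with 7 alike.

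Genes of mitosis were higher in Huh7 as a group. All 29 tested members of 30 were higher in Huh7, each by at least 2-fold (background 31.1%), with a median log2 fold change of −3.58; in the thirtieth, NUSAP1, 81.4% of the exon length is shared with another gene. Their summed level was 70.5 to 76.4 CPM in IMR90 and 831.6 to 869.2 CPM in Huh7. MKI67, the gene of the proliferation antigen Ki-67, measured 0.469, 0.774 and 0.208 CPM in the IMR90 libraries and 16.9, 16.6 and 17.8 CPM in the Huh7 libraries. MYBL2, which binds the MuvB complex to switch on mitotic genes, measured 0, 0.0596 and 0.260 CPM in the IMR90 libraries and 170.3, 166 and 171 CPM in the Huh7 libraries. TTK, a spindle checkpoint kinase (0.422 against 35.2 CPM), and DLGAP5, a spindle protein (0.225 against 22.6 CPM), were likewise under 1 CPM in IMR90. Of the 30 genes, 26 reached 10 CPM in Huh7 and AURKA alone did so in IMR90 (15.2 against 32.3 CPM). No proliferating Huh7 or IMR90 cells were measured, so these levels cannot be placed against those of dividing cells of the same line.

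**Figure D3:**
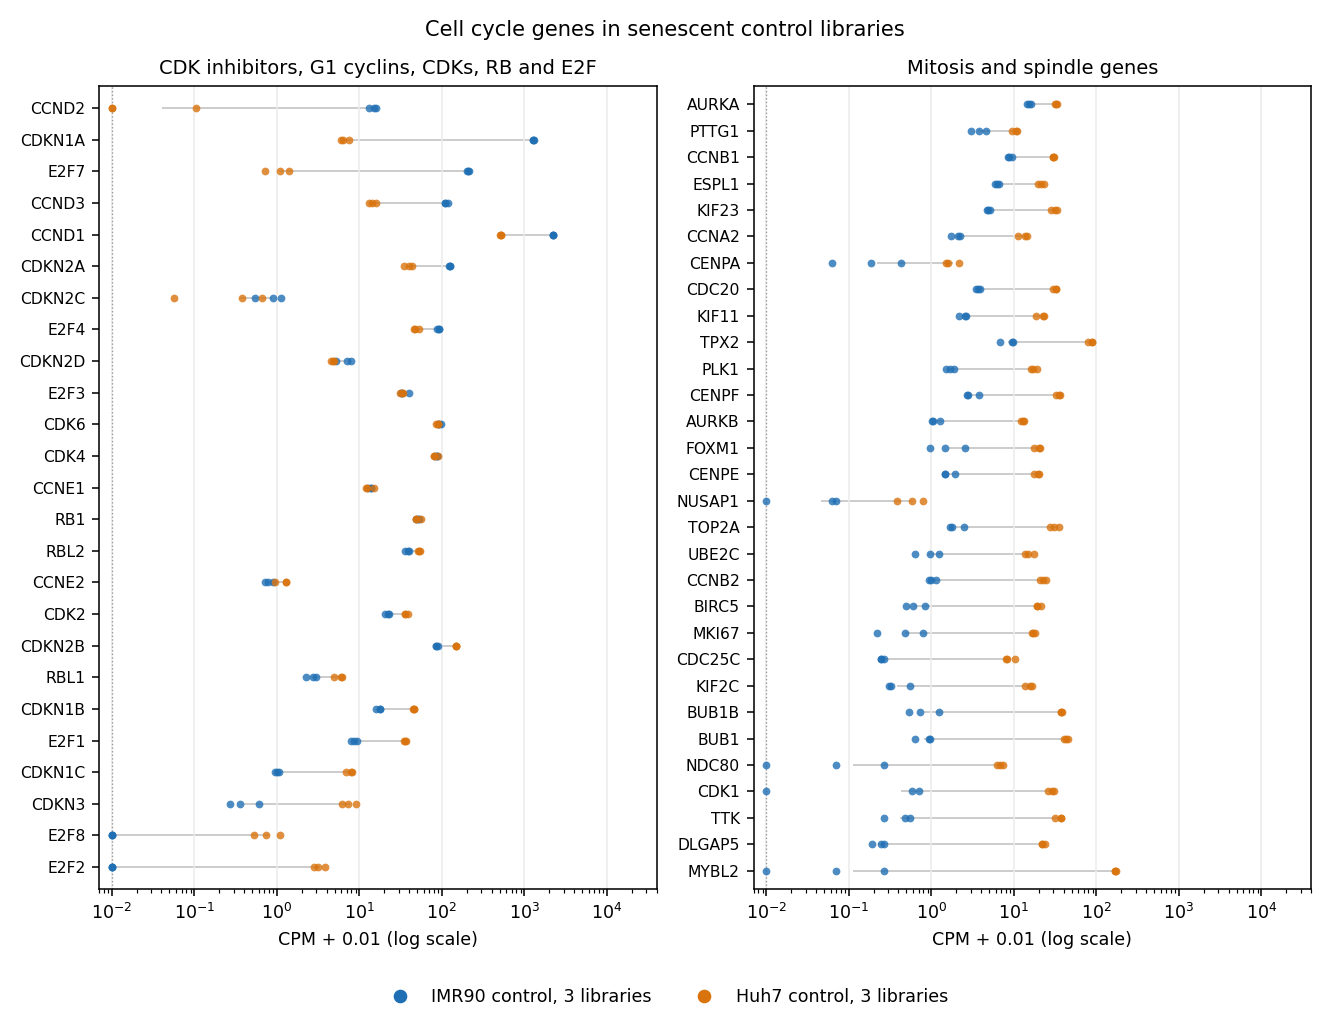
CPM (plus 0.01, log scale; dotted line, 0 counts) of cell cycle inhibitors and G1 genes (left) and mitosis genes (right) in the 3 IMR90 (blue) and 3 Huh7 (orange) control libraries, grey lines joining the means. CDKN1A and E2F7 stand apart on the IMR90 side, CDK4, CDK6 and RB1 overlap, and all 30 mitosis genes are to the right in Huh7.

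The promoter of BUB1B, a mitotic checkpoint kinase gene that measured 1.23, 0.715 and 0.521 CPM in the IMR90 libraries and 38.6, 37.8 and 37.3 CPM in the Huh7 libraries, is shown as one of those with the word TTTGAA, the cell cycle genes homology region through which DREAM and B-MYB complexes act. It is RefSeq sequence (GRCh38.p14, chr15:40160819-40161118, plus strand) with the word in capitals, 23 bases before the start.
BUB1B: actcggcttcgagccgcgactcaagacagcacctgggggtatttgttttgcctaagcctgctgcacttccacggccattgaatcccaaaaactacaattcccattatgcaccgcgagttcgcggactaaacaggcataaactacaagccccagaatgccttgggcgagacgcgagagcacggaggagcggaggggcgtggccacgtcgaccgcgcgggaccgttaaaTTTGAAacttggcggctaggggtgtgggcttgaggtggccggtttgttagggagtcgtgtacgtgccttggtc
TTTGAA, on either strand, was in 15 of 24 matched promoters of mitosis genes (62.5%), in 1 of 26 of replication genes (3.85%), in 9 of 30 of plasma protein genes (30.0%), in 15.4% of all promoters and in 10.2% of those of genes tested.

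DNA replication genes were also mostly higher in Huh7, by less. Of 30, 26 were higher in Huh7, 1 in IMR90 and 3 were not called, with a median log2 fold change of −1.70. TK1, thymidine kinase, measured 1.29, 0.834 and 1.15 CPM in the IMR90 libraries and 43.6, 43.5 and 43.6 CPM in the Huh7 libraries. GINS1 and RFC3, of the replicative helicase and the clamp loader, stood at 2.33 against 37.4 CPM and 2.98 against 27.2 CPM. PCNA, the sliding clamp, was alike instead (30.4, 31.3 and 30.8 CPM in the IMR90 libraries and 31.7, 29.6 and 28.6 CPM in the Huh7 libraries). Its interval ran from −0.12 to 0.20 under TMM scaling. RRM1, a subunit of ribonucleotide reductase, was alike as well. UHRF1, which guides maintenance DNA methylation, was the member higher in IMR90 (14.5 against 6.18 CPM).

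Chromatin genes often read as marks of senescence were divided. LMNB1, the lamin B1 gene that falls in many senescent cells, measured 2.81, 1.67 and 2.66 CPM in the IMR90 libraries and 16, 15.2 and 16 CPM in the Huh7 libraries. HMGB2 stood at 3.16 ± 0.392 CPM against 36.1 ± 1.99 CPM. Both were higher in Huh7 with no overlap, as was the heterochromatin methyltransferase SUV39H1 (5.07 against 30.9 CPM). HMGA1 (1341 against 31.7 CPM) and HMGA2 (793 against 46.4 CPM), structural proteins of senescent heterochromatin foci, were 42.4-fold and 17.1-fold higher in IMR90. GLB1, the source of senescence-associated beta-galactosidase, measured 118, 119 and 120.0 CPM in the IMR90 libraries and 665, 657 and 663 CPM in the Huh7 libraries and was thus 5.56-fold higher in Huh7.

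Genes of growth arrest and apoptosis that DNA damage can induce are given as examples, with no count over a list. BAX, which permeabilises mitochondria, stood at 136 against 34.2 CPM. CCNG1, the gene of cyclin G1, measured 149, 153 and 161 CPM in the IMR90 libraries and 38.4, 42.3 and 41.2 CPM in the Huh7 libraries. RRM2B, a ribonucleotide reductase subunit for resting cells, stood at 113 against 25.2 CPM. All 3 were higher in every IMR90 library than in any of Huh7, and MDM2, a ubiquitin ligase, was higher there within the alike range (86 against 58.4 CPM). The death receptor genes FAS (23.9 CPM, exons shared over 40.6%) and EDA2R (28.6 CPM) had 1 and 0 counts in Huh7. SESN1, a stress-induced sestrin, and BTG2, an antiproliferative gene, were higher in Huh7 (9.92 against 12.3 and 15.1 against 21.3 CPM). GADD45A, a DNA damage gene, was alike, at 101 and 104 CPM.

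The BCL2 family, which decides whether a cell survives and is the target of some drugs that kill senescent cells, differed member by member. Of the survival genes, MCL1 was 4.71-fold higher in IMR90 (1012 against 215 CPM) and BCL2L2 5.51-fold higher (76.7 against 13.9 CPM). BCL2A1, an NF-kB target, measured 67.6, 63.7 and 64.4 CPM in the IMR90 libraries and 0 in all 3 Huh7 libraries. BCL2L1, the gene of BCL-XL, was 4.45-fold higher in Huh7 (51.3, 49.3 and 52.5 CPM in the IMR90 libraries and 215, 229.9 and 236 CPM in the Huh7 libraries), with 41.3% and 43% of its exon length shared with another gene in the tables of IMR90 and Huh7. BCL2 itself did not pass the filter on low counts. Of the death-promoting members, PMAIP1 (106 against 17.1 CPM) was higher in IMR90, and BCL2L11 (3.25 against 46 CPM) and BMF (6.41 against 50.4 CPM) in Huh7.

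Secreted cytokine genes were on the IMR90 side, most of them by far. Of 26 cytokine and chemokine genes, 24 were tested, and 20 of them were higher in IMR90, all by at least 2-fold (background 21.8%), while 4 were higher in Huh7. The median log2 fold change was 5.33 (5.16 with genes at 0 set to their bound), and the summed level was 26010 to 26430 CPM in IMR90 and 1927 to 2089 CPM in Huh7. CXCL8, the neutrophil chemokine interleukin-8, measured 9804, 9689 and 9678 CPM in the IMR90 libraries and 214, 227 and 219 CPM in the Huh7 libraries. It was 44.2-fold higher in IMR90, where it was among the 8 genes with the highest TPM. The Huh7 libraries held between 214 and 227 CPM of it, so it was on in both lines without overlap.

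The interleukin-1 genes, which sit upstream of the other SASP cytokines, were low in Huh7. IL1A measured 536, 508 and 501 CPM in the IMR90 libraries and 0, 0.137 and 0.142 CPM in the Huh7 libraries. IL1B measured 5529.7, 5427 and 5483 CPM in the IMR90 libraries and 0.377, 0.547 and 0.615 CPM in the Huh7 libraries. IL6, with 20.7% of its exon length shared with another gene, measured 470.3, 459 and 464 CPM in the IMR90 libraries and 2.83, 3.10 and 2.74 CPM in the Huh7 libraries. In Huh7 none of the 3 genes passed 4 CPM in any library. LIF (1246 against 0.698 CPM), IL11 (895 against 1.47 CPM) and the activin gene INHBA (1630.4 against 1.88 CPM) had the same shape, and CSF2, the gene of GM-CSF, stood at 129.9 CPM with 1 count in Huh7.

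A group of chemokine genes was well expressed in both. CXCL5 measured 2669.6, 2646 and 2641 CPM in the IMR90 libraries and 772, 871 and 793 CPM in the Huh7 libraries. CXCL1 stood at 890.2 ± 23.6 against 254 ± 3.30 CPM. CXCL6 was 6.17-fold higher in Huh7 (52.4 against 323 CPM), and CCL20, which attracts CCR6 cells, was higher there within the alike range (142 against 249 CPM). CXCL1, CXCL2 and CXCL3, and CXCL5 and CXCL6, are similar in sequence, so the split of reads within each group is uncertain. GDF15, a stress cytokine, was 9.95-fold higher in IMR90 (819 against 82.3 CPM). CXCL10 (2.54 against 6.69 CPM) and TNF (0.0372 against 1.43 CPM) were the other members higher in Huh7, both low.

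The promoters of CXCL8 and CXCL5 are shown since both genes were on in both lines and hold the NF-kB word GGANTTTCC. They are RefSeq sequence (GRCh38.p14) with the word, on either strand, in capitals: CXCL8 on the plus strand (chr4:73740319-73740618), 91 bases before the start, and CXCL5 on the minus strand (chr4:73998628-73998927), 90 bases before it.
CXCL8: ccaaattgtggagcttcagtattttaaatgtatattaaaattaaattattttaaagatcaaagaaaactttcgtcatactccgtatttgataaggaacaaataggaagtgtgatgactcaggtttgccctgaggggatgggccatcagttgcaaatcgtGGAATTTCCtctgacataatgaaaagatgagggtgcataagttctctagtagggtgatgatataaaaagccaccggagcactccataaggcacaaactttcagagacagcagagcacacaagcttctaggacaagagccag
CXCL5: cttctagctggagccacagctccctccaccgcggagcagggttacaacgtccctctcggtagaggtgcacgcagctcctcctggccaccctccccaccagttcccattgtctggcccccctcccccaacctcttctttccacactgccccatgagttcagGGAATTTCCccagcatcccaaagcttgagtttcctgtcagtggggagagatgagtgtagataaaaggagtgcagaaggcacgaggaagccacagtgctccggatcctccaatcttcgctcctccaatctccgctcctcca
The word was in 8 of 22 matched promoters of the cytokine list (36.4%), those of CXCL8, CXCL5, CXCL1, CXCL3, IL6, CXCL2, CXCL6 and CXCL10, against 1.64% of all promoters and 1.71% of those of genes tested. Its holders thus include genes that were higher in IMR90 and genes that were higher in Huh7.

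Proteases, their inhibitors and growth factors went almost wholly with IMR90. Of 32 genes, 31 were higher in IMR90 (background 41.2%) with a median log2 fold change of 6.57, and 13 were under 1 CPM in Huh7. MMP1 measured 3893, 3856 and 3815 CPM in the IMR90 libraries and 0, 0.0456 and 0 CPM in the Huh7 libraries. MMP3, stromelysin, measured 1598, 1549.8 and 1546 CPM in the IMR90 libraries and 0.141, 0.273 and 0.0473 CPM in the Huh7 libraries. Both proteases were thus near 0 in every Huh7 library. TIMP1, an inhibitor of those proteases, was among the top 8 genes of IMR90 by TPM (6095 against 178 CPM). IGFBP3, a binder of insulin-like growth factors, was the exception, 5.17-fold higher in Huh7 (70.4, 69.8 and 69.9 CPM in the IMR90 libraries and 378, 351 and 358 CPM in the Huh7 libraries).

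**Figure D4:**
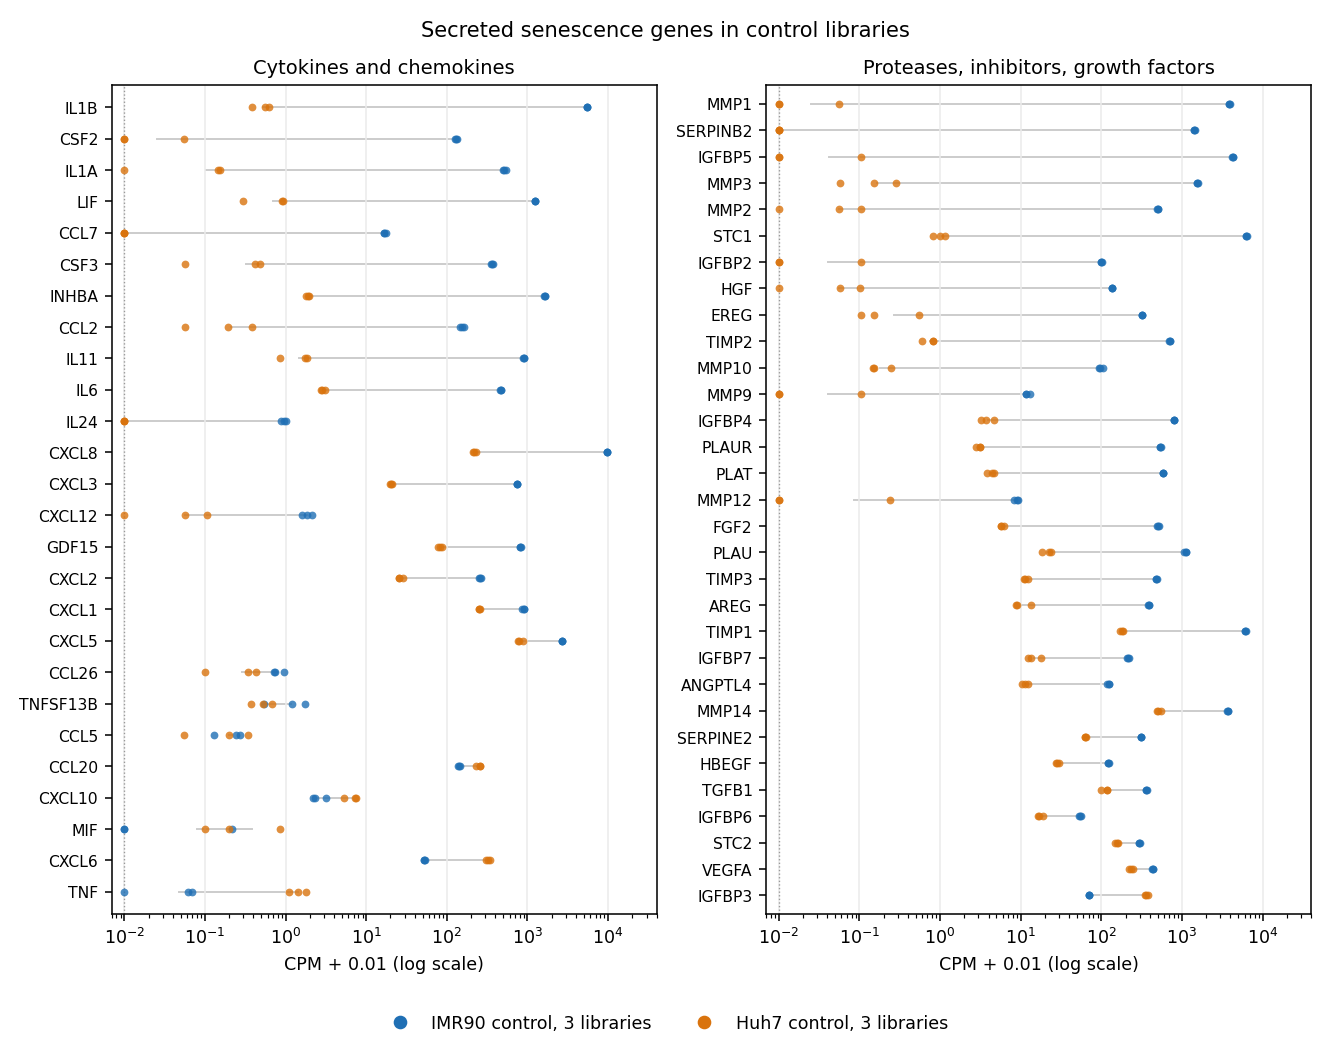
CPM (plus 0.01, log scale; dotted line, 0 counts) of 26 SASP cytokines and chemokines (left) and 31 proteases, inhibitors and growth factors (right) in the 3 IMR90 (blue) and 3 Huh7 (orange) control libraries, grey lines joining the means. Most genes lie far to the right in IMR90, with CXCL8 the farthest of the cytokines, and CXCL6, CCL20 and IGFBP3 are to the right in Huh7.

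NF-kB subunits and targets had a smaller median than the cytokines. Of 22 NF-kB subunits and targets, 15 were higher in IMR90 (background 41.2%) and 6 in Huh7 (background 46.3%). Their median was 0.79, or 0.51 on library size alone. RELA, the main activating subunit (125 against 82.2 CPM), NFKB1 (71.2 against 58.7 CPM) and the target ICAM1 (599 against 504 CPM) were alike. PTGS2, the gene of cyclooxygenase-2, measured 298, 297 and 293 CPM in the IMR90 libraries and 0.754, 0.364 and 0.662 CPM in the Huh7 libraries. TNFAIP2 was 10.7-fold higher in Huh7 (39.7 against 425 CPM), and IER3 17-fold higher in IMR90 (890.4 against 52.4 CPM, exons shared over 32.9%). Of 16 AP-1 and C/EBP factor genes, 9 were higher in IMR90 (background 41.2%) and 5 in Huh7 (background 46.3%). The median of this small list was 0.72, or 0.43 on library size alone. JUNB stood at 144 against 39.2 CPM, MAFF at 240.3 against 26.6 CPM, and JUND, within the alike range, at 158 against 281 CPM. CEBPB, the C/EBP of the SASP, was 3.68-fold higher in IMR90 (336 against 91.1 CPM), while its relative CEBPD was 6.19-fold higher in Huh7 (54.3 against 337 CPM).

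HRAS itself measured 633, 626 and 616 CPM in the IMR90 libraries and 17.2, 15.4 and 13.9 CPM in the Huh7 libraries. It was 40.4-fold higher in the line labelled with HRAS G12V (log2 fold change 5.33 ± 0.056), and gene counts cannot separate an introduced copy from the cell's own gene. NRAS, a related GTPase gene, was higher in Huh7 (62.5 against 138 CPM). Over the 25 RAS pathway and ERK feedback genes, 17 were higher in IMR90 (background 41.2%) and 7 in Huh7 (background 46.3%). DUSP6, a phosphatase that ERK induces against itself, was 9.82-fold higher in IMR90 (336 against 34.2 CPM, exons shared over 28.6%), and the early response gene EGR1 (357 against 1.82 CPM) and the AP-1 gene FOSL1 (119 against 2.93 CPM) were on the same side. DUSP4, a nuclear phosphatase of the same family, measured 10.7, 8.40 and 7.40 CPM in the IMR90 libraries and 201, 197 and 199 CPM in the Huh7 libraries, and SPRY1 (2.77 against 19.1 CPM) was higher in Huh7 as well, so the feedback genes did not share 1 direction.

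Lists of general cell functions held shares of alike genes near that of all genes at 10 CPM in both lines (63.2%). Of 31 lysosomal genes, 12 were higher in each line, 7 were not called and 18 of the 28 at 10 CPM in both were alike, with a median log2 fold change of −0.0034, whose sign turned in several alternatives. The proteases CTSB (3259 against 749 CPM) and CTSL (227 against 45.9 CPM) were higher in IMR90, and FUCA1 and GAA, glycosidases like GLB1, in Huh7 (7.31 against 34.2 and 79.3 against 266 CPM). Of 28 cholesterol and fatty acid synthesis genes, 24 reached 10 CPM in both lines and 14 of these were alike, and their median of 0.27 became −0.014 on library size alone. The oxidative phosphorylation genes of the nucleus had a median of 0.44, or 0.152 on library size alone, with 18 of 27 at 10 CPM in both lines alike.

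Glycolysis, protein folding and antigen presentation leaned to IMR90, against shares over all genes tested of 41.2% higher in IMR90 and 46.3% in Huh7. The medians of these lists, 1.45, 1.04 and 1.31, were 1.16, 0.75 and 1.02 on library size alone. Common reference genes leaned the same way, with 23 of 27 higher in IMR90 and a median of 0.59, so the direction is not particular to these lists. Of 28 tested glycolysis and hypoxia genes, 23 were higher in IMR90 and 5 in Huh7 (median 1.45), led by the glucose transporter SLC2A3 (207 against 0.354 CPM) and PFKP, platelet-type phosphofructokinase (469 against 4.53 CPM), while PFKFB3 and NDRG1 were higher in Huh7. Of 21 chaperone genes of the endoplasmic reticulum, 19 were higher in IMR90, with HSPA5, the chaperone BiP, at 2362 against 658 CPM, and XBP1, a regulator of that compartment, was higher in Huh7 (124 against 259.9 CPM). Of 14 tested antigen presentation genes, 12 were higher in IMR90, HLA-B by 33.7-fold (741 against 22 CPM), with the caveat that HLA genes are alike in sequence and vary between people. B2M, the light chain that all class I molecules need, measured 907, 897 and 884 CPM in the IMR90 libraries and 865, 886 and 905 CPM in the Huh7 libraries and did not differ beyond its spread under TMM scaling, with an interval of −0.054 to 0.087.

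NRF2 targets and interferon-stimulated genes leaned to Huh7. Of 24 NRF2 targets, 17 were higher in Huh7 (background 46.3%) and 7 in IMR90, with a median of −1.81. AKR1B10, an aldo-keto reductase, measured 0.234, 0.417 and 0.104 CPM in the IMR90 libraries and 454, 457 and 448 CPM in the Huh7 libraries, and NQO1, a quinone reductase, stood at 35.3 against 365 CPM. HMOX1, which breaks down heme, was higher in IMR90 (46.1 against 16.2 CPM). Of 30 tested interferon-stimulated genes, 18 were higher in Huh7 (background 46.3%) and 8 in IMR90 (background 41.2%; median −1.03), with the antiviral GTPase MX2 (0.352 against 84.6 CPM) on the Huh7 side, while IFI44 (10.3 against 0.0152 CPM) was on that of IMR90. The integrated stress response list had a median of 0.034, which is −0.255 on library size alone: the serine synthesis genes PSAT1 and PSPH were higher in Huh7 (63.4 against 278 and 20.5 against 136 CPM), and DDIT4 in IMR90 (111 against 13.7 CPM), although 41.2% of its exon length is shared with another gene in the Huh7 table and 0% in that of IMR90.

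**Figure D5:**
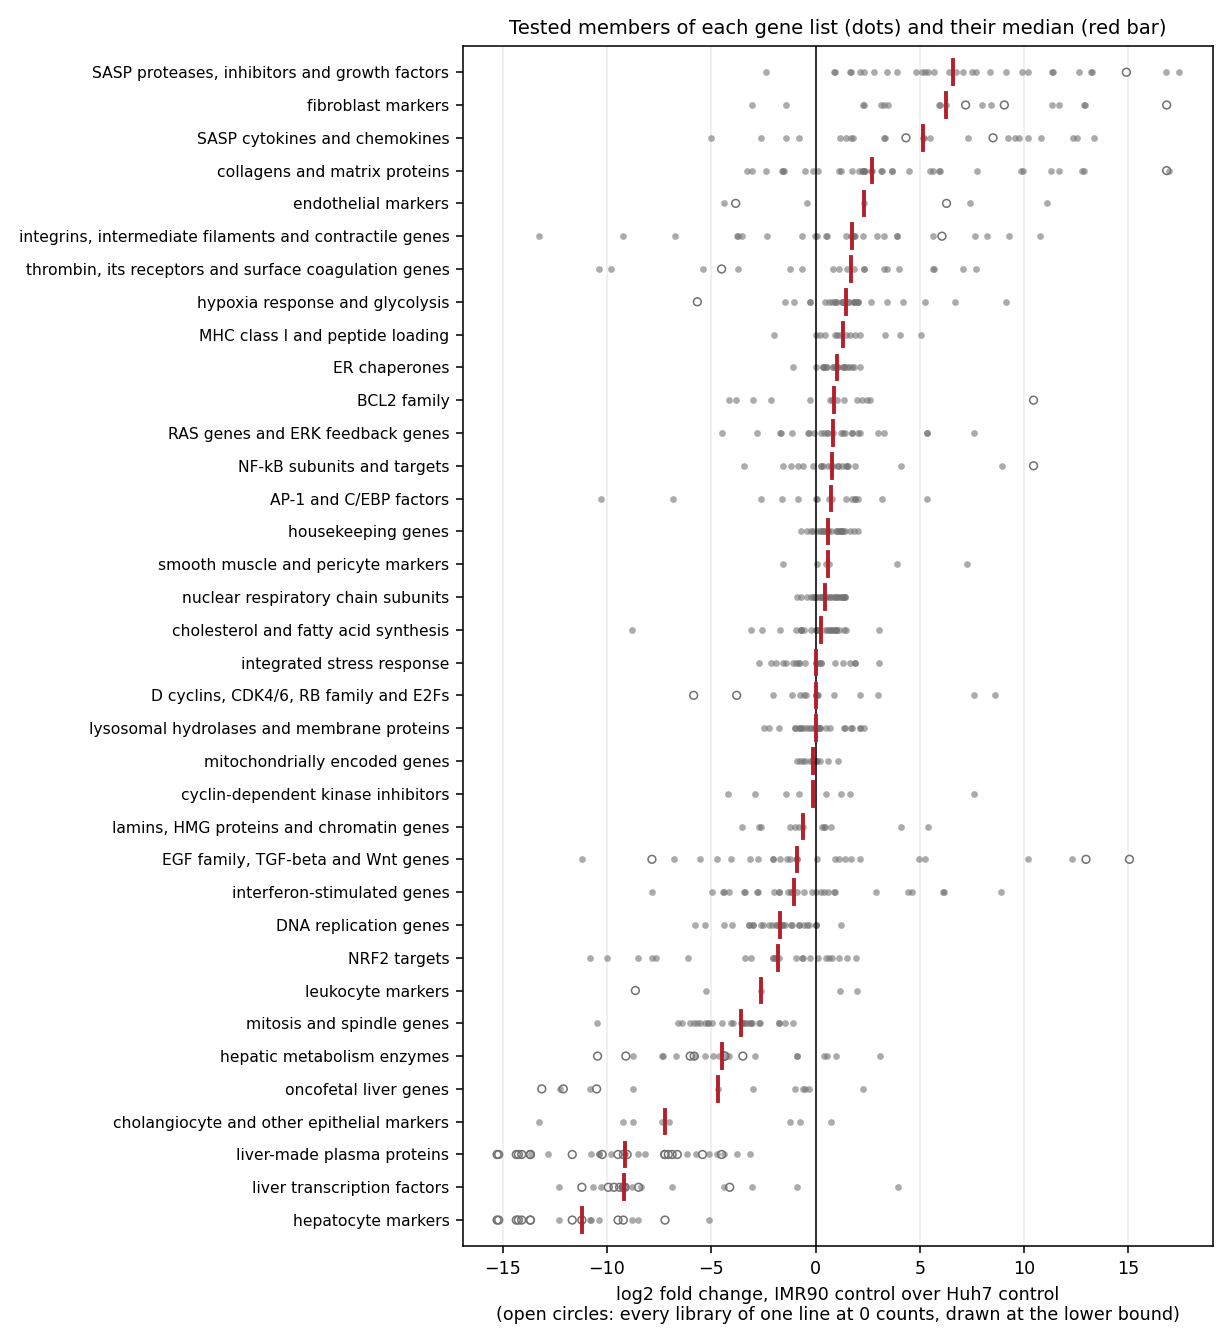
Log2 fold change (IMR90 over Huh7) of the tested members of each gene list shown (dots), with the median as a red bar; open circles are genes with 0 counts in every library of one line, drawn at their lower bound. Secreted senescence genes and fibroblast markers lie to the right, liver and mitosis genes to the left, and lysosomal and D cyclin lists around 0.

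THBD, the gene the study set out to study, was scarcely expressed in Huh7. It measured 18.5, 20.9 and 22.4 CPM in the IMR90 libraries and 0, 0 and 0.284 CPM in the Huh7 libraries, and the 6 counts in Huh7 all came from replicate 3. Thrombomodulin binds thrombin, which is made from the F2 product, and lets it activate protein C, the PROC product. Both of these liver-made partners were on in Huh7 instead (39.6 and 59.3 CPM) and had 2 counts each in all of IMR90. The thrombin receptor gene F2R was 9.59-fold higher in IMR90 (477 against 49.8 CPM), as were the plasminogen activators PLAT (579.6 against 4.34 CPM) and PLAU (1105 against 21.7 CPM, exons shared over 31%). SERPIND1, a thrombin inhibitor made by liver, was higher in Huh7 (3.94 against 169 CPM). Of 20 tested genes of this list, 13 were higher in IMR90 (background 41.2%) and 7 in Huh7 (background 46.3%).

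Single growth factor ligands and receptors differed widely, while the counts by direction over their list were near those over all genes. WNT5A, a ligand of non-canonical Wnt signalling (666 against 0.123 CPM), and the Wnt antagonist SFRP1 (373 CPM, no count in Huh7) were on the IMR90 side. ERBB3, a receptor for neuregulins, measured 0.0586, 0 and 0.417 CPM in the IMR90 libraries and 423, 410.3 and 417 CPM in the Huh7 libraries. ID1, a target of bone morphogenetic proteins, was 110.4-fold higher in Huh7 (4.66 against 514 CPM), and LGR5, a Wnt target and stem cell receptor, was on in Huh7 only at the depth reached (13 CPM against 0 counts). Of 28 tested genes, 11 were higher in IMR90 (background 41.2%) and 16 in Huh7 (background 46.3%).

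The most abundant transcripts were shared. By TPM, MT-CO1, MT-CO2, MT-ATP6, MT-ND4, MT-ND4L and MT-RNR2, all encoded in mitochondrial DNA, were among the top 8 of both lines. MT-CO1, a subunit of cytochrome oxidase, measured 16623, 16699 and 16610 CPM in the IMR90 libraries and 17095, 15554 and 14267 CPM in the Huh7 libraries, and the libraries overlapped (log2 fold change 0.090, or −0.198 on library size alone). Of 13 mitochondrially encoded protein genes, 12 were alike. EEF1A1, a translation elongation factor, was alike at 7396 and 6353 CPM (log2 fold change 0.22, or −0.0695 on library size alone). It has no value in the alternative limited to genes with lengths within 10% in both count tables, so its counts may rest on unlike gene models. Common reference genes were less steady: 23 of 27 were higher in IMR90 (background 41.2%) and 4 in Huh7 (background 46.3%), with 14 alike. GAPDH was 4.16-fold higher in IMR90 (4143 against 996 CPM) and HPRT1 3.16-fold (33.7 against 10.7 CPM). The median log2 fold change of these reference genes was 0.59, or 0.30 on library size alone.

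The same line difference could be read in the 9 libraries labelled shTHBD, which the comparison above did not use. THBD in them did not always follow the label: scaled over all 15 libraries it was 20.5 CPM in the control of IMR90, against 43.8 CPM in its shTHBD set 1 by label and 11.6 CPM in set 2. With all 15 libraries in 1 edgeR fit and both IMR90 sets averaged, 14164 genes were called between the controls and 14661 between the shTHBD libraries, of 16676 tested. Of 3342 genes called between controls with an absolute log2 fold change of at least 4, 3315 were called with the same sign in the shTHBD libraries. At a cut of at least 1, it was 8545 of 8994 genes. The shTHBD libraries share line, inducer and count table with the controls, so like signs are not independent support. Among genes called in both comparisons, 12564 had the same sign and 566 the opposite one, and genes called in only 1 of them are not in these counts. The size of the line difference was called different between controls and shTHBD libraries for 7206 of 16676 genes (43.2%), by at least 2-fold for 1952.

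Several genes named above were among those whose line difference had another size in the controls. The gap in MYBL2 was −10.43 on the log2 scale in the controls and −5.70 in the shTHBD libraries, where the Huh7 level was 23.6 CPM instead of 164 CPM. The gap in IL6 was 7.37 and 5.45, and that in CXCL8 5.51 and 5.27. CRYAB, a small heat shock protein, is named for the size of its difference (−6.74 ± 0.45): it was under 1 CPM in both controls (0.562 and 0.946 CPM) and stood at 57.9 CPM in IMR90 set 1. The IMR90 levels of MYBL2 were under 1 CPM in all sets (0.106, 0.417 and 0.485 CPM in the control, set 1 and set 2), so part of its change rests on few counts. For BCL2A1, FGF7 and PDZRN3 too, and for ELOVL2 and H19, the difference of the differences rested on under 1 CPM in the lower line, as in FGF7, a fibroblast growth factor with 0 CPM in the Huh7 control and 0.0807 CPM in the Huh7 shTHBD libraries, where the call was lost without replicate 2 of the latter (log2 difference 1.22, adjusted p = 1.0).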

How the data were processed

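RNA of 15 libraries was sequenced, and gene counts were deposited in 2 tables, one per line. Per the submitters' processing notes the authors used fastp, STAR and featureCounts on GRCh38; per the file headers the counts of the IMR90 table came from featureCounts 2.0.1 with GENCODE 38 annotation, by gene symbol and without strand or a setting that keeps fragments on overlapping genes. No source used here gives the version or annotation behind the Huh7 table. The Huh7 samples' descriptions cite a differently named table, and the description of 1 IMR90 shTHBD library names Huh7 while its other labels say IMR90, which were followed.

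The tables were joined on gene symbol. Of genes with a mean count of at least 100, 7.08% had lengths over 10% apart between the tables. Genes passing edgeR's filterByExpr were scaled by TMM and tested with edgeR 4.0.16 (robust quasi-likelihood, R 4.3.3), with Benjamini-Hochberg adjustment over all genes tested. SEs and 95% intervals are approximate, from the fold change and its F value. A gene at 0 in one line was set against a floor of 3 counts over its 3 libraries, 0.0565 CPM in IMR90 and 0.0466 CPM in Huh7, which covers counting error only. The fits were also run on simulated data in which few genes changed and both lines had the same spread. The real data differ in both respects, so that run does not check the scaling or the intervals here.

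Genes were named by rule: a fixed set of 33, the 8 largest fold changes per direction at 100 CPM or more, the 8 highest TPM per line, up to 3 members per list and direction, the 8 most abundant alike genes, and the 3 largest differences from the shTHBD libraries per direction. Further list members were named after their values were seen. The members and lists were chosen with earlier results of these data known. Alternatives were DESeq2 1.42.0 and limma 3.58.1 voom tests, other scalings and filters, a replicate block, all 15 libraries in 1 fit, genes of like length, updated symbols, single shTHBD sets and leaving out each library. XIST and Y-linked genes were left out, and some other items are not reported here or shown in the figures.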

Additional observations from a re-analysis of the deposited data

Results flagged for a closer look

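For 9 of the genes named or fixed in lists, the line difference in the controls and that in the shTHBD libraries pointed in opposite directions, each called in the 15-library edgeR fit, as was the difference between them. Values here are the log2 line difference (IMR90 over Huh7) in the controls minus that in the shTHBD libraries, ± an approximate SE.

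CRYAB, a small heat shock protein, gave −6.74 ± 0.45, with IMR90 levels of 57.9 CPM in the libraries labelled set 1 and 2.56 CPM in set 2. CHAC1, a glutathione-degrading stress gene, gave 2.61 ± 0.12, being higher in IMR90 in the controls and lower there in the shTHBD libraries of both sets. For CCL20 the value was −1.79 ± 0.084, for PFKFB4, a regulator of glycolysis, −1.72 ± 0.11, for NDRG1, a hypoxia gene, −1.58 ± 0.056, and for CDK2 −1.50 ± 0.14. Smaller values were found for MCAM, a pericyte adhesion molecule (0.81 ± 0.075), BTG2, an antiproliferative gene (−0.71 ± 0.11), and NDUFA4 (−0.45 ± 0.062).

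The averaged IMR90 value hides a spread between the sets for most of these genes. CCL20 was 140.2 CPM in set 1 and 8.56 CPM in set 2, against 17.1 CPM in the Huh7 shTHBD libraries, so the sets lay on either side of Huh7. The same held for BTG2 (30.3 and 95.8 against 45.3 CPM), CDK2 (26.9 and 5.86 against 7.30 CPM), MCAM (114 and 72.3 against 97.3 CPM) and NDRG1 (292 and 33.1 against 87.2 CPM). What lies behind the difference between the sets was not tested.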

How the results depend on the processing

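Replicate numbers showed no sign of pairing the libraries. The deviations of same-numbered libraries correlated at −0.0449, 0.0511 and −0.0169 over 7701 genes, and those of other pairs at −0.0655 to 0.0826. With so few libraries of 2 unlike lines, this cannot exclude a shared batch. With the replicate block 13405 genes were called, 6319 higher in IMR90 and 7086 in Huh7, 4850 were alike and 7041 differed from the shTHBD libraries. Counts of called genes stayed within 1.5 times under every alternative run, from 10747 (at least 5 CPM in 3 libraries) to 15345 (no filter), and from 13546 to 13799 when 1 control library was left out. Updating older symbols before the join, an alternative chosen after seeing the data, gave 13724 called genes. Library size alone moved the median of all genes to −0.377 and the calls to 5159 higher in IMR90 and 8401 in Huh7. Among the genes named by rule, it turned the sign of CDK4 (−0.247), CDK6 (−0.200), RB1 (−0.281), EEF1A1 (−0.0695), MT-CO1 (−0.198), MT-ND1 (−0.0799) and MT-ND4L (−0.259), all small. Values on library size alone are not given here for other alike genes, such as B2M and PCNA. MT-ND4 ranged from −0.0639 to 0.0800 when 1 control library was left out, the highest value coming without Huh7 replicate 1, and was −0.290 on library size alone, where it was called. Depth limits genes under about 1 CPM, and 0 counts are bounded by a floor of 3 counts.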
